A study of Saccharomyces cerevisiae with 24 samples.

Results

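Chromosome VIII of Saccharomyces cerevisiae, the budding yeast, carried 269 of the 6033 nuclear open reading frames (ORFs) in the deposited tables. The members were taken by name alone: 50 ORFs named YHL lie on the left arm and 219 named YHR on the right arm. In the S288C reference assembly R64, the same assembly as SacCer3, the chromosome is 562643 bp long and its centromere, CEN8, spans chrVIII:105586-105703. Of the 269 ORFs, 265 are annotated there and 4 (YHR095W, YHR145C, YHR212C and YHR217C) are not. In total, 17 ORFs were at 0 or blank in all libraries, and these included all 15 genes whose coding sequence is interrupted, so no spliced gene of the chromosome was measured.

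The level of each gene was compared in haploid strains that carry extra whole chromosomes, written D for disome followed by the duplicated chromosomes. The euploid strain (WT, RLY2626) is MATa ura3 his3 trp1 leu2 LYS2 in the S288C background, and every strain was grown in rich medium (YPD) and treated with cycloheximide before harvest. Chromosome VIII was duplicated in D1/2/8 (NVY3, 1 culture), D1/2/8/11 (KLY193, 2 cultures) and D1/8 (KLY194, 2 cultures). It was single in D2 (NVY1), D1/2 (NVY2), D13 (KLY196), each with 1 culture, and in D13 (KLY195), with 2 cultures. D1/2/8/11 and D1/8 also carry a cassette that restores the WT sequence of CAK1, D13 (KLY195) carries cassettes that restore CAK1 and SEC24, D1/2/8 and D13 keep a CAK1 point mutation, and D13 also has a SEC24 point mutation. D13 and D13 (KLY195) are MATalpha and the other strains are MATa. WT, D2 and D1/2 were prepared in run 1, and another WT culture and the other 5 strains in run 2, so there was 1 WT library per run and fraction. Every strain with chromosome VIII duplicated also has chromosome I duplicated, and in run 2 the aneuploid strains without it are MATalpha with chromosome XIII duplicated. The effects of chromosomes I, VIII and XIII and of mating type can therefore not be told apart in run 2. All carriers trace to the parental isolate RLY4938, each karyotype other than D13 is represented by 1 strain, and the tests given here measure the spread between these cultures.

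A gene on a duplicated chromosome has an extra template, and where transcription and decay per copy are unchanged its mRNA doubles, a log2 ratio of 1. Total mRNA and ribosome footprints (FP, the mRNA fragments that ribosomes protect from nuclease) were sequenced from the same lysate of each culture, and the FP change minus the mRNA change of a gene is its change in ribosome density. Chromosome VIII holds genes for enolase (ENO2), hexose transporters (HXT1, HXT4, HXT5), the copper metallothionein (CUP1), sterol synthesis (ERG7, ERG9, ERG11), pheromone signalling (GPA1, STE12, STE20), ribosome assembly and the proteasome (RPN1, RPN10).

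The 24 libraries held from 1660219 to 5074869 reads in FP and from 1532143 to 3476806 in mRNA in run 1, and from 8477348 to 24931995 and from 22373325 to 39626145 in run 2, as recovered from the deposited values. These totals cover annotated ORFs with an uninterrupted coding sequence. The median chromosome VIII gene had 83.0 to 213.9 reads per FP library in run 1 and 476 to 2013 in run 2. Members above 0 numbered 219 to 245 per FP library and 230 to 252 per mRNA library. The mating-type genes followed the labels: in FP, STE2, the receptor of MATa cells, stood at 26.2 to 422 RPKM (reads per kilobase of coding sequence, scaled to the size of the library) in the MATa libraries and at 0.44 to 1.91 in the MATalpha libraries, and STE3, the receptor of MATalpha cells, at 0 to 3.74 against 58.8 to 116. Replicate cultures differed by a median of 0.06 to 0.08 (log2) over chromosome VIII genes in mRNA, and in FP by 0.08 (D1/8), 0.15 (D1/2/8/11) and 0.30 (D13, KLY195), the FP cultures of the last being the least alike.

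In the strains with chromosome VIII duplicated, its genes were higher in mRNA and FP by close to the change in copy number. The median log2 ratio to the WT of the same run in mRNA reached 0.75 for D1/2/8, whereas D1/2/8/11 had 0.91 ± 0.021 (SD, n = 2) and D1/8 had 0.96 ± 0.0071 (SD, n = 2). In the strains with a single copy it stayed near 0: D2 had 0.01, D1/2 had 0.05, D13 had -0.04 and D13 (KLY195) had -0.08 ± 0.018 (SD, n = 2). D1/2, which has chromosome I but not VIII duplicated, thus stood with the other strains that lack the duplication. The FP median of D1/2/8 was 0.77, that of D1/2/8/11 was 0.95 ± 0.041 (SD, n = 2) and that of D1/8 was 0.99 ± 0.015 (SD, n = 2), against -0.04 to 0.01 in the 4 other strains. The cultures of both groups did not overlap in either fraction, and the means over strains differed by 0.89 in mRNA and 0.91 in FP, or by 0.94 and 0.90 within run 2. Ribosome density did not separate the strains: the chromosome medians lay between -0.06 and -0.01 in all 7, and the groups overlapped.

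**Figure D1:**
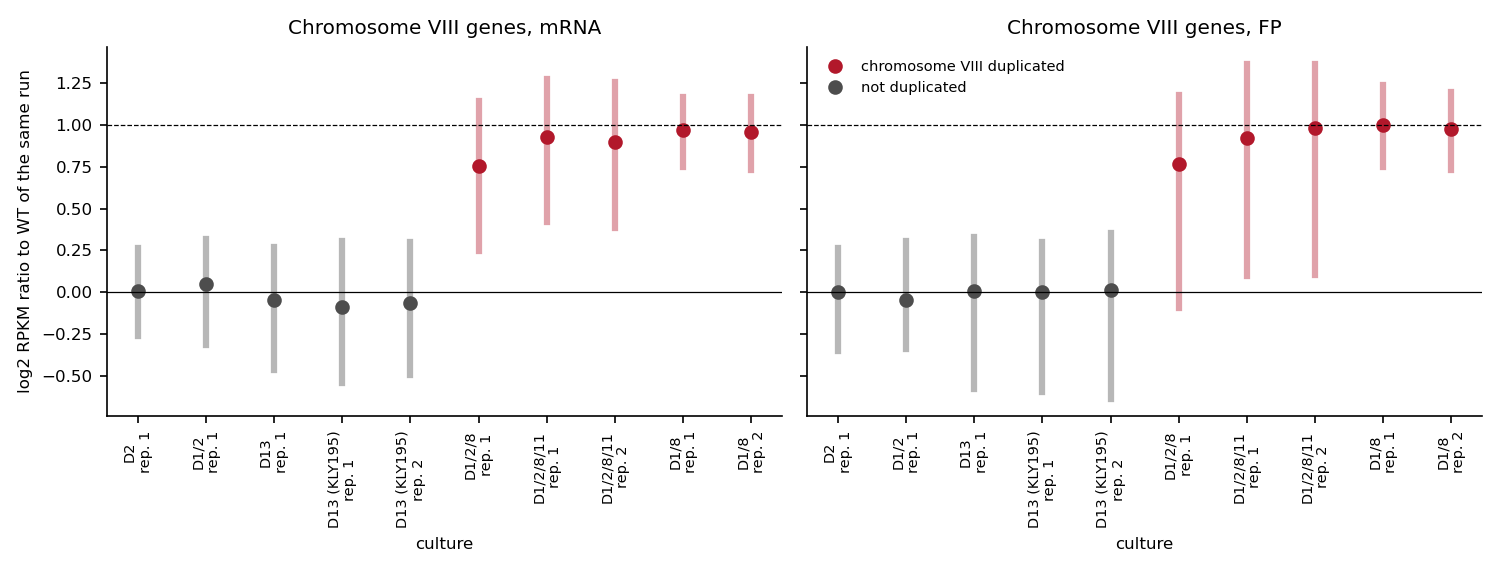
Log2 RPKM ratio to the WT of the same run for the chromosome VIII genes of each culture, in mRNA (left) and FP (right). Points are medians over genes and bars span the middle 50% of genes, not an error of the median; all 5 cultures with the duplication (red) have medians between 0.75 and 1.00 and the 5 without (grey) between -0.09 and 0.05, with the longest bars in FP of D1/2/8/11 and D1/2/8.

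The strains differed in how closely single genes kept to this level. The range that held the middle 50% of chromosome VIII genes spanned 0.42 and 0.44 log2 units in mRNA and 0.49 and 0.47 in FP in the D1/8 cultures. It spanned 0.90 and 1.28 in D1/2/8, and 0.86 to 0.88 and 1.26 to 1.27 in D1/2/8/11. Genes of chromosomes duplicated in no strain were also more spread in the latter, 0.74 to 0.79 in mRNA and 0.99 to 1.02 in FP in D1/2/8/11, against 0.40 in mRNA in D1/8. A ratio between 0.6 and 1.4 was taken as following copy number. In mRNA 77.0% and 75.4% of 252 measured genes lay in this band in the D1/8 cultures, against 46.8% for D1/2/8 and 50% and 48.0% for the D1/2/8/11 cultures. The FP shares were 74.0% and 74.4% in D1/8, 46.8% in D1/2/8 and 39.1% and 42.2% in D1/2/8/11. A similar contrast was present among genes duplicated in no strain, with an equally wide band placed around 0. For mRNA, D1/8 held 77.2% and 78.3% of them inside, D1/2/8 held 53.0%, and D1/2/8/11 held 54.7% and 52.5%. Their FP counterparts were 73.7% and 74.3% for D1/8, 51.7% for D1/2/8, then 44.8% and 43.85% for D1/2/8/11. The contrast between strains was thus not particular to chromosome VIII.

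Over all 3 strains, 81 of 252 chromosome VIII genes (32.1%) followed copy number in mRNA, 25 (9.92%) were below the band in every strain, 7 (2.78%) were above it in every strain and 139 were mixed. In FP, 64 of 237 (27.0%) followed, 23 (9.70%) were below, 11 (4.64%) above and 139 mixed. Genes of chromosomes duplicated in no strain, judged by a band of the same width around 0, stayed within it in all 3 strains in 39.0% of 4093 cases in mRNA and 33.0% of 3680 in FP, were below it in 5.4% and 6.11% and above it in 2.93% and 4.46%. The members and this background are not tested against each other. On chromosome I, which the same strains carry in duplicate, 38.9% of 90 genes followed in mRNA and 22.7% of 75 in FP. In both fractions, 30 genes of chromosome VIII followed, 14 were below and 2 were above. Those that followed in both include RPN1, the largest subunit of the proteasome regulatory particle, CDC23, a subunit of the anaphase promoting complex, SPC97, a component of the gamma-tubulin complex, and OSH3 and OSH7, oxysterol-binding protein homologs. ATG7, an enzyme of autophagy, and DNA2, a helicase and nuclease of DNA replication, were also among them. The 14 below in both were ARG4, ARN1, DUR3, GPA1, HXT1, HXT4, PCL5, ROF1, YHI9, YHL026C, YHL049C, YHR095W, YHR145C and YHR219W, and the 2 above in both were CUP1-1 and RIM4, a regulator of meiosis. RIM4 was also above the WT without the extra copy, at FP ratios of 2.95 in D13 and 3.16 in D13 (KLY195) beside 2.36, 1.66 and 1.79 in the 3 carriers. Across genes the mRNA and FP ratios were correlated with Pearson's r of 0.81 in D1/8 (n = 238) and 0.68 in D1/2/8/11 and D1/2/8 (n = 237), a description over genes that share libraries and the WT reference.

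A test of single genes was possible within run 2, where the 5 libraries with the duplication were compared with the 4 without it, WT included, by limma. In mRNA 179 of 250 chromosome VIII genes rose (Benjamini-Hochberg adjusted p under 0.05) and 0 fell, against 7.22% of the 5470 genes of all chromosomes called higher and 3.03% called lower. In FP 130 of 236 rose, against 4.63% of 5036 over all chromosomes, and 1, YHR145C, against 2.48%, fell (-1.48 ± 0.33, SE, limma adjusted p = 0.030). The median difference over the chromosome was 0.96 in mRNA and 0.97 in FP, beside 0.05 and 0.07 over all genes tested. Cultures of a strain entered as separate libraries here. With cultures averaged by strain, limma called 66 genes of the chromosome in mRNA and 0 in FP, where 154 had an unadjusted p under 0.05. No count over all genes was made in that setting.

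Of the members with the highest WT levels, none was called away from its copy number, although not all ratios lay in the band of 0.6 to 1.4. By the fit described below, their FP departures from copy number had limma adjusted p from 0.15 to 0.72. They were 0.39 for ENO2, -0.68 for RPS20, -0.60 for RPL8A, -0.22 for EGD2 and -0.77 for MPC2. ENO2, an enolase of glycolysis, was the highest, at 11970 RPKM in mRNA of the run 2 WT. It was at 22240 in D1/2/8, while the D1/2/8/11 cultures had 23330 and 23100 RPKM and the D1/8 cultures 35800 and 33860, whereas D13 had 6173 and the D13 (KLY195) cultures 8854 and 8864. All 5 libraries with the duplication were above all 4 without it, and the difference was 1.64 ± 0.22 (SE) in mRNA (limma adjusted p = 0.0015) and 1.39 ± 0.20 (SE) in FP (limma adjusted p = 0.0037). Of the 28-base stretches of ENO2, 42.4% occur elsewhere in the coding sequences, mostly in ENO1, so some of its reads may come from that gene. RPS20, a protein of the small ribosomal subunit, was at 4683 RPKM in FP of the run 2 WT and 7979 in D1/2/8, while the D1/2/8/11 cultures had 8877 and 7255 RPKM and the D1/8 cultures 4282 and 4438, whereas D13 had 4073 and the D13 (KLY195) cultures 4829 and 6989. The groups overlapped, since both D1/8 cultures stood at or below the WT although they carry the extra copy. Its mRNA rose by 0.73 ± 0.18 (SE, limma adjusted p = 0.033), while the FP difference was 0.32 ± 0.27 (SE, limma adjusted p = 0.53). RPL8A, of the large subunit, shares 23.4% of its 28-base stretches with other genes, RPL8B being the closest. It had FP ratios of 0.69, 0.63 and 0.19 for D1/2/8, then D1/2/8/11, then D1/8. EGD2, a subunit of the nascent polypeptide-associated complex, had ratios of 1.23, 1.33 and 0.51, and MPC2, a mitochondrial pyruvate carrier subunit, 0.28, 1.19 and 0.64.

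To find genes that depart from their copy number, log2 of the copy number of each chromosome was subtracted and the same libraries were compared again. In mRNA 1 gene of 250 on chromosome VIII was below its copy number, against 0.11% of all 5470 genes, and 0 were above it, where the background was also 0.11%. In FP 1 of 236 was below, against 0.119% of 5036, and 0 were above, with a background of 0.119%. At an unadjusted p under 0.05, 44 genes were below and 14 above in mRNA, and 35 and 12 in FP. No count over all genes was made at this threshold, so these numbers are not read as particular to the chromosome. Without the run 2 WT library the limma calls numbered 10 below and 4 above in mRNA and 15 and 3 in FP. Without replicate 2 of D13 (KLY195) they numbered 6 below and 1 above in FP. Calls over all genes were not counted in these refits, so whether they rose as well is not known. The number of genes called away from their copy number thus moved with single libraries, and values of genes below or above the band are given as descriptions where no call is named.

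The single call in both fractions was YHR145C, an ORF that the reference does not annotate, so that its position and any overlap with other genes were not examined. Its mRNA stood at 54.7 RPKM in the run 2 WT and 56.3 in D1/2/8, while the D1/2/8/11 cultures had 56.1 and 54.7 RPKM and the D1/8 cultures 45.5 and 49.8, whereas D13 had 52.8 and the D13 (KLY195) cultures 48.97 and 47.8. The libraries with and without the extra copy overlapped entirely. Its departure from copy number was -0.95 ± 0.096 (log2, SE, limma adjusted p = 0.0072). In FP it was at 20.9 RPKM in the run 2 WT and 5.18 in D1/2/8. The D1/2/8/11 cultures had 17.2 and 6.80 RPKM and the D1/8 cultures 5.06 and 6.87, whereas D13 had 21.9 and the D13 (KLY195) cultures 27.6 and 16.9. The departure in FP was -2.48 ± 0.33 (log2, SE, limma adjusted p = 0.033). The FP call was lost on leaving out any 1 of D1/2/8, D1/2/8/11 replicate 2, D13, D13 (KLY195) replicate 1 or either D1/8 culture, with limma adjusted p between 0.085 and 0.15.

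ARG4, the argininosuccinate lyase of arginine synthesis and a known target of the transcription factor Gcn4, was at 467 RPKM in mRNA of the run 2 WT. It was at 153.1 in D1/2/8, while the D1/2/8/11 cultures had 191.1 and 184.6 RPKM and the D1/8 cultures 233.8 and 196.4, whereas D13 had 705.3 and the D13 (KLY195) cultures 114.5 and 115.8. Every library with the duplication was below the WT, but the strains without it lay on both sides of them. The mRNA ratios were -1.61, -1.31 and -1.12 for D1/2/8, then D1/2/8/11, then D1/8, and the FP ratios -1.32, -1.16 and -0.99. The departure from copy number in FP was -2.29 ± 0.45 (SE, limma adjusted p = 0.072), and it was called without the run 2 WT (adjusted p = 0.040) or without replicate 2 of D13 (KLY195) (adjusted p = 0.0022). PCL5, a cyclin of the Pho85 kinase that promotes Gcn4 turnover, had mRNA ratios of -0.56, -0.97 and -0.77, with D13 at 1.84 and D13 (KLY195) at -1.49 ± 0.042 (SD, n = 2). YHI9, a gene of unknown function, had mRNA ratios of -0.26, -0.56 and 0.10.

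MUP3, a low-affinity methionine permease, was above the band in mRNA in all 3 strains. Its mRNA was at 22.6 RPKM in the run 2 WT and 98.3 in D1/2/8, while the D1/2/8/11 cultures had 122.6 and 123.7 RPKM and the D1/8 cultures 93.6 and 86.1, whereas D13 had 44.4 and the D13 (KLY195) cultures 28.6 and 27.8. All libraries with the duplication were above all without it. The difference was 1.79 ± 0.20 (SE, limma adjusted p = 4.9e-04), of which 0.79 ± 0.20 (SE, limma adjusted p = 0.11) exceeded the copy number. In FP MUP3 had only 7.35 RPKM in the run 2 WT and ratios of 0.18, 1.4 and 1.06 for D1/2/8, then D1/2/8/11, then D1/8, and the FP difference was 0.72 ± 0.24 (SE, limma adjusted p = 0.11). ARG4, below the band, and MUP3, above it in mRNA, each hold the Gcn4 core motif TGACTC, searched on both strands, and the 30 bases around it are shown on the strand of the gene, with the motif in capitals. In the ARG4 window (chrVIII:141564-141593, minus strand, R64) the motif begins 179 bases before the start codon, and in the MUP3 window (chrVIII:26106-26135, plus strand) it begins 123 bases before it and lies on the opposite strand.
ARG4: ttagtagatgaaTGACTCactttttggata
MUP3: agaggcctgcctGAGTCAaggggcaaaaac
From 250 bases before the start codon to the first 50 coding bases, 18 of 265 chromosome VIII genes (6.79%) hold the motif, against 460 of 5617 of all genes (8.19%). The 18 genes had median FP ratios of 0.44, 0.57 and 0.89 for D1/2/8, then D1/2/8/11, then D1/8, beside 0.80, 0.99 and 0.99 for the genes without it, a description of where these letters occur.

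GPA1, the alpha subunit of the G protein that holds pheromone signalling off in haploid cells, had the lowest p in mRNA after YHR145C. Its mRNA was at 180.2 RPKM in the run 2 WT and 149.7 in D1/2/8, while the D1/2/8/11 cultures had 161.7 and 157.4 RPKM and the D1/8 cultures 218.4 and 215.6, whereas D13 had 139 and the D13 (KLY195) cultures 169 and 164.2. D1/8 alone was above the WT, and the groups overlapped. The departure from copy number was -0.86 ± 0.14 (SE, limma adjusted p = 0.052) in mRNA and -0.74 ± 0.23 (SE, limma adjusted p = 0.15) in FP. In run 1, where chromosome VIII is single, its mRNA ratios were -0.85 in D2 and -0.93 in D1/2. STE12, the transcription factor at the end of the same pathway, had mRNA ratios of 0.01, -0.04 and 0.46 and FP ratios of 0.49, 0.62 and 0.51, while STE20, a kinase of the pathway, had FP ratios of 1.15, 0.96 and 1.11. STP2, a transcription factor of amino acid permease genes, was below the band in FP, at 0.19, 0.56 and 0.30.

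The hexose transporter HXT4 differed between the strains that carry the extra chromosome. Its FP was at 24.1 RPKM in the run 2 WT and 6.32 in D1/2/8. The D1/2/8/11 cultures had 3.07 and 2.58 RPKM and the D1/8 cultures 22.5 and 22.9, whereas D13 had 12.1 and the D13 (KLY195) cultures 12.1 and 17.1. D1/8 was at the WT level and D1/2/8/11 lowest of all. HXT1, the low-affinity transporter, had FP ratios of -1.84, -1.77 and 0.04. YHL049C and YHR219W, within 5 kb of the chromosome ends, had mRNA ratios of -1.41, -1.42 and 0.37 and of -0.99, -0.80 and 0.53, but all of their 28-base stretches occur in other genes, so their reads cannot be placed. YHR095W, not annotated in the reference, ranged in FP from 21.6 RPKM in D1/8 to 1627 in D1/2/8/11, whose cultures differed (1627 and 217.4), and was at 4.09 in the run 1 WT and 708.6 in the run 2 WT.

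The copper metallothionein gene CUP1-1 was above the band in all 3 strains in FP and mRNA. It was at 489.7 RPKM in FP of the run 2 WT and 2635 in D1/2/8, while the D1/2/8/11 cultures had 1881 and 2078 RPKM and the D1/8 cultures 1407 and 1696, whereas D13 had 747.1 and the D13 (KLY195) cultures 782.5 and 694.1. All libraries with the duplication were above all without it, and the difference was 1.51 ± 0.21 (SE, limma adjusted p = 0.0035). The strains without the duplication were themselves above their WT, at ratios of 0.07 to 0.88, and the excess over copy number, 0.51 ± 0.21 (SE, limma adjusted p = 0.26), was not called. In mRNA the excess was 0.15 ± 0.20 (SE, limma adjusted p = 0.76). CUP1-2 was above the band in all 3 strains in FP but not in mRNA, so the mRNA class of CUP1-1 is not firm. CUP1-1 (chrVIII:212535-212720) and CUP1-2 (chrVIII:214533-214718, both minus strand, R64) have the same coding sequence of 186 bases, with 0 differences, so their reads cannot be told apart. It is shown 5′ to 3′ with the start codon in capitals.
CUP1-1 and CUP1-2: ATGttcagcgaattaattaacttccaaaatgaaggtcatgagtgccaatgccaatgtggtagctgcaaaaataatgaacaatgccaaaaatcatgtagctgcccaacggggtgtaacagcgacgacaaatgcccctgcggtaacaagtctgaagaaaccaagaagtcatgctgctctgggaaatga
The gene lies in a tandem array whose number of repeats is known to vary between yeast strains, and that number was not tested here.

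SOD2, the mitochondrial manganese superoxide dismutase, was at 235.1 RPKM in FP of the run 2 WT and 1052 in D1/2/8, while the D1/2/8/11 cultures had 968.1 and 1148 RPKM and the D1/8 cultures 860.2 and 843.7, whereas D13 had 370.4 and the D13 (KLY195) cultures 301.4 and 555.6. The groups did not overlap, and FP rose by 1.48 ± 0.24 (SE, limma adjusted p = 0.0061). The excess of SOD2 over copy number in FP, 0.48 ± 0.23 (SE, limma adjusted p = 0.35), was not called. DYS1, deoxyhypusine synthase of translation factor eIF5A, had FP ratios of 1.54, 1.78 and 1.4 for D1/2/8, then D1/2/8/11, then D1/8. The ratios were 1.68, 1.74 and 1.42 for RPP1, a protein of RNase P, and 1.6, 1.83 and 1.51 for SAM35, of the mitochondrial sorting and assembly complex. GAR1, of the box H/ACA particles that modify rRNA, had 1.52, 2.31 and 1.55, and DOG2, a 2-deoxyglucose-6-phosphate phosphatase, 1.4, 1.50 and 1.47. These ratios rest on 1 WT library. Against the 4 run 2 libraries without the duplication the FP departures from copy number were 0.39 for DYS1, 0.33 for RPP1, 0.24 for SAM35, 0.11 for GAR1 and -0.28 for DOG2, none of them called. In mRNA, CRP1, a protein that binds cruciform DNA, stood just above the band, at 136.7 RPKM in the run 2 WT and 371.5 in D1/2/8, while the D1/2/8/11 cultures had 373 and 382.8 RPKM and the D1/8 cultures 423 and 429.6, whereas D13 had 151.3 and the D13 (KLY195) cultures 160.5 and 153.9. It rose by 1.4 ± 0.088 (SE, limma adjusted p = 1.0e-04), 0.40 ± 0.081 (SE, limma adjusted p = 0.076) above the copy number. FYV4, a mitochondrial ribosomal protein, had mRNA ratios of 1.43, 1.56 and 1.43, COX6, a subunit of cytochrome c oxidase, 1.6, 1.57 and 1.50, and SSP1, a protein of spore formation, 2.19, 2.01 and 1.4. Their mRNA departures by the same comparison were 0.22 for FYV4, 0.0026 for COX6 and -0.20 for SSP1, so neither COX6 nor SSP1 exceeded the copy number against those libraries. PFS1, also of spore formation and picked after its values were seen, had the highest FP ratios of the class (2.75, 2.49 and 3.24), but it was at only 0.52 RPKM in the run 2 WT.

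**Figure D2:**
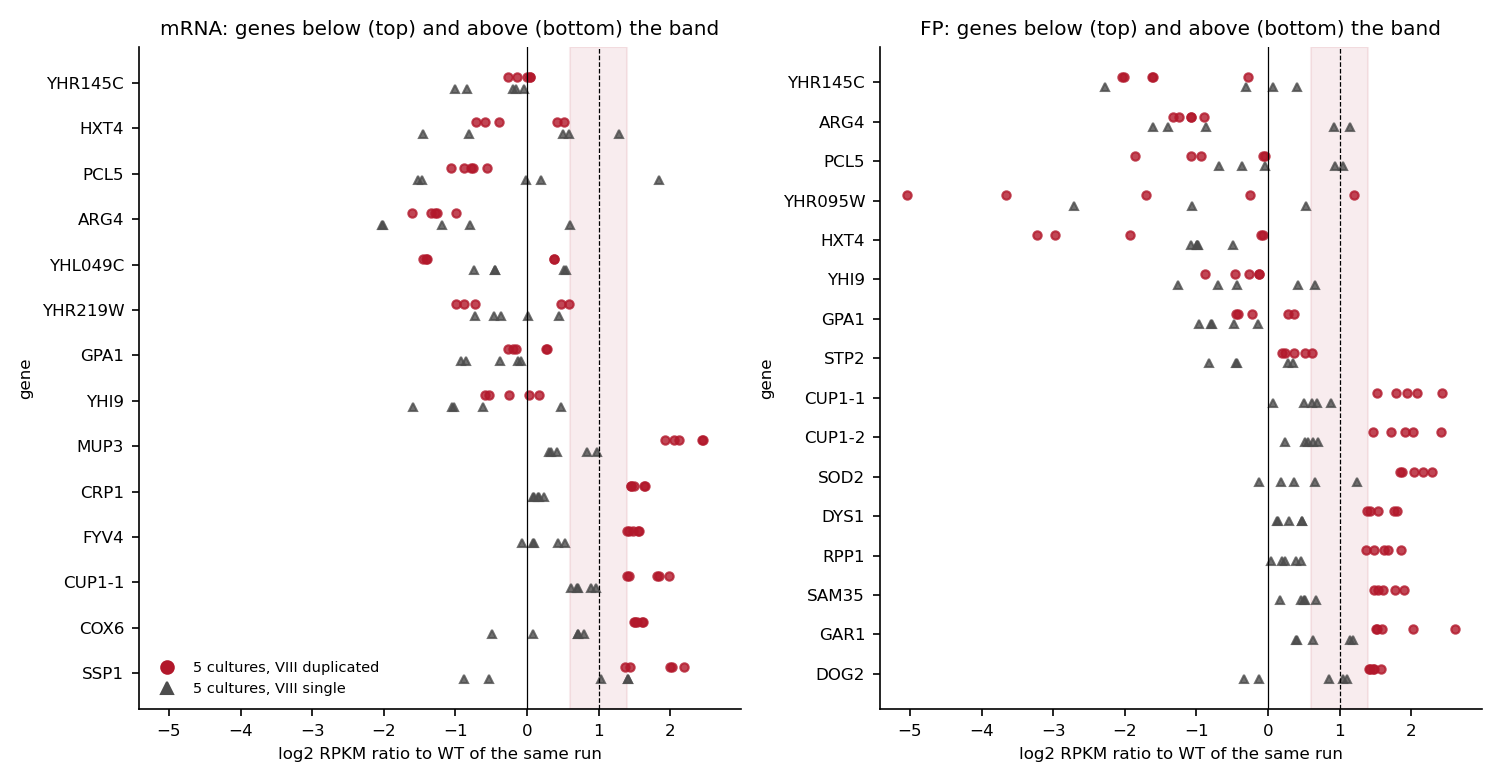
Log2 RPKM ratio to the WT of the same run (x axis) for genes named on the y axis, in mRNA (left) and FP (right). These genes are a selection of those outside the band of 0.6 to 1.4 (shaded) in every strain with chromosome VIII duplicated. Each red circle is 1 of 5 cultures with the duplication and each grey triangle 1 of 5 without; MUP3 and CRP1 in mRNA and CUP1-1 in FP show no overlap of the groups, while ARG4 and GPA1 overlap in both.

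The lists by role are read beside the shares called higher over the whole chromosome, 71.6% in mRNA and 55.1% in FP, and no list was tested against them. Of 10 ribosome assembly genes, 5 rose in mRNA and 8 in FP, with median FP ratios of 1.23 in D1/2/8, 1.39 in D1/2/8/11 and 0.80 in D1/8. IMP3, of the small subunit processome, had FP ratios of 1.55, 1.95 and 0.97 and rose by 1.34 ± 0.24 (SE, limma adjusted p = 0.011), and NMD3, the export adaptor of the large subunit, rose by 1.04 ± 0.14 (SE, limma adjusted p = 0.0028). CIC1 did not pass in FP (0.90 ± 0.28, SE, limma adjusted p = 0.086). Of 13 genes of translation and nascent chains, 4 spliced ribosomal protein genes (RPL14B, RPL27A, RPL42B and RPS4B) were not measured, and of the other 9 all rose in mRNA and 6 in FP. SSZ1, a ribosome-associated Hsp70, rose by 1.36 ± 0.18 (SE) in FP, with ratios of 1.66, 1.69 and 1.17. All 5 genes of the proteasome and ubiquitin rose in both fractions. RPN1 was at 226.6 RPKM in FP of the run 2 WT and 467.8 in D1/2/8. The D1/2/8/11 cultures had 448.1 and 445.6 RPKM and the D1/8 cultures 509.6 and 480.3, whereas D13 had 174.4 and the D13 (KLY195) cultures 184.5 and 239.8. No library crossed between the groups, and RPN1 rose by 1.2 ± 0.13 (SE, limma adjusted p = 0.0010). RPN10, a ubiquitin receptor of the proteasome, had ratios of 1.71, 1.75 and 0.96.

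Of 13 mitochondrial genes, 13 rose in mRNA and 7 in FP. Of 10 genes of sugar metabolism, 7 rose in mRNA and 4 in FP, among them GND1, a dehydrogenase of the pentose phosphate pathway, by 1.73 ± 0.16 (SE, limma adjusted p = 7.3e-04) in FP. The hexose transporters HXT1, HXT4 and HXT5 passed in neither fraction. Of 10 sterol and lipid genes, 8 and 6 rose. ERG7, the lanosterol synthase, rose in FP by 1.24 ± 0.12 (SE), whereas ERG11, the sterol 14-demethylase, was not called (1.39 ± 0.71, SE, limma adjusted p = 0.27). ERG11 was at 672.5 RPKM in FP of the run 2 WT and 304.3 in D1/2/8, while the D1/2/8/11 cultures had 242 and 278.8 RPKM and the D1/8 cultures 1213 and 1242, whereas D13 had 115.6 and the D13 (KLY195) cultures 121.2 and 139.2, so only D1/8 was above the WT.

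Of 6 metal genes, 4 rose in mRNA and 3 in FP (CTR2, a vacuolar copper transporter, and CUP1-1 and CUP1-2, which share their reads and are 1 measurement). Of 10 genes of amino acids and nucleotides, 6 and 4 rose, among them PRS3, a phosphoribosylpyrophosphate synthetase, by 0.98 ± 0.17 (SE) in FP. Of 10 transcription factors and coactivators, 8 rose in each fraction, and of 13 signalling and cell cycle genes 9 and 10 rose, among them the septin CDC12 by 1.19 ± 0.14 (SE) and SPC97 by 1.22 ± 0.14 (SE) in FP. In the secretory pathway and cell wall 7 of 13 genes rose in mRNA and 3 of 12 in FP, with median FP ratios of -0.18 in D1/2/8, -0.03 in D1/2/8/11 and 0.98 in D1/8. GPI16, a subunit of the enzyme that attaches GPI anchors, was at 68.9 RPKM in FP of the run 2 WT and 34.6 in D1/2/8, while the D1/2/8/11 cultures had 28.2 and 36.6 and the D1/8 cultures 137.6 and 134.4. The 3 called in FP were ERP5 and GGA2, of vesicle transport, and SPO11, which acts in meiotic recombination and not in secretion. At these settings none of the 11 lists held a gene called away from its copy number.

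The secretory values were part of a split by protein type. A hydrophobic segment, as in signal sequences and membrane spans, was predicted in 89 of the 265 annotated members from the protein sequence, a prediction that also takes in soluble proteins such as RPN1. In FP, genes without a segment had medians of 1.03 in D1/2/8, 1.14 and 1.16 in the D1/2/8/11 cultures and 1.0 and 1.02 in D1/8. Genes with one (n = 78) had medians of -0.27 in D1/2/8, -0.17 and 0.06 in D1/2/8/11 and 0.98 and 0.93 in D1/8. The footprints of segment genes in D1/2/8/11 and D1/2/8 were thus near the WT level in spite of the extra copy, and those in D1/8 near the copy number. The same split was present without the duplication, at 0.13 against -0.74 in D13 and 0.12 against -0.82 and 0.17 against -0.92 in D13 (KLY195), but not in D2 (-0.06 against 0.11) or D1/2 (-0.09 against 0.06). In mRNA it was smaller, 0.93 against 0.38 in D1/2/8 and 0.99 against 0.92 in replicate 1 of D1/8. It was also found on chromosomes duplicated in no strain, where genes without a segment were higher in FP by 0.83 in D1/2/8, 0.86 in each D1/2/8/11 culture and 0.01 and 0.05 in D1/8. It is therefore not particular to chromosome VIII. Of the 77 segment genes tested 26 rose in FP, and of the 157 others 104, with median differences of 1.03 and 0.96, and segment genes were low in the run 2 strains without the duplication as well.

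**Figure D3:**
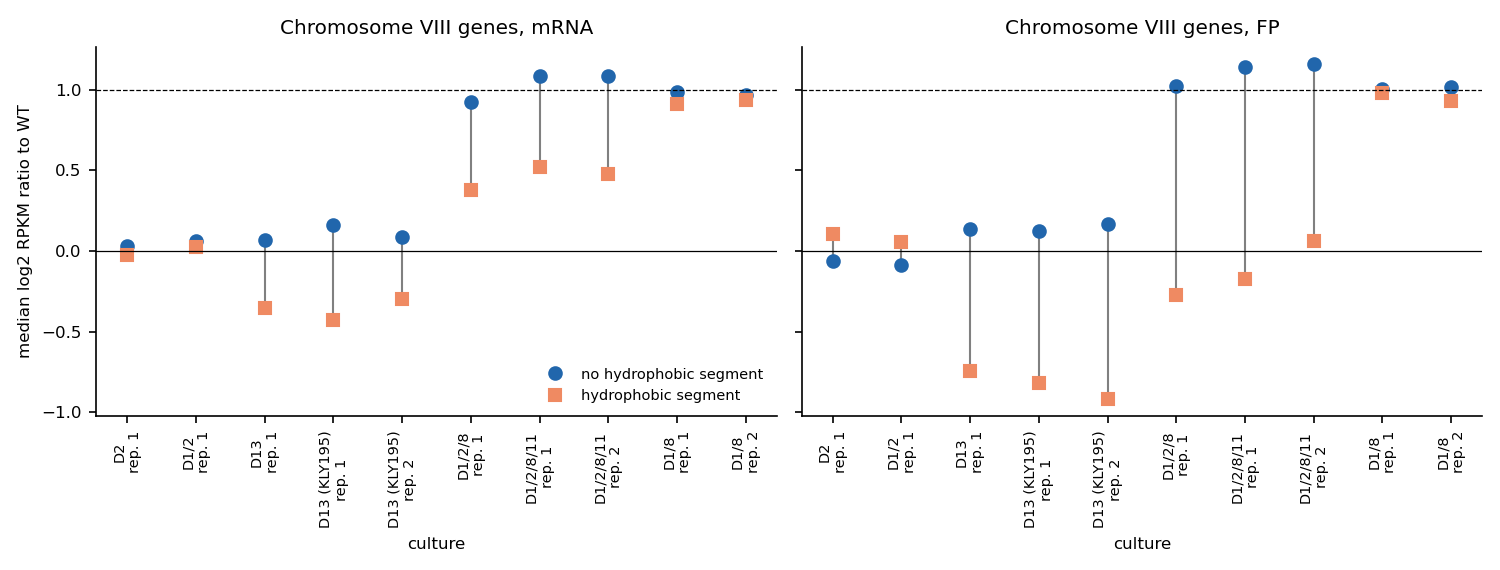
Median log2 RPKM ratio to WT of chromosome VIII genes with (squares) and without (circles) a predicted hydrophobic segment in each culture, in mRNA (left) and FP (right); grey lines join both medians of a culture. In FP they lie 1.10 to 1.32 apart in D1/2/8/11 and D1/2/8 and at most 0.09 apart in D1/8.

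Both D1/2/8/11 and D1/8 have chromosome VIII duplicated and 2 cultures each, and they were compared directly. Karyotype and strain cannot be told apart here, since each is 1 strain. After adjustment for copy number, limma called 83 of 250 chromosome VIII genes higher in D1/2/8/11 and 106 lower in mRNA, against 36.3% and 37.5% of all 5470 genes. In FP it called 34 of 236 higher and 56 lower, against 16% and 23.3% of all 5036 genes. The shares on chromosome VIII (33.2% and 42.4% in mRNA, 14.4% and 23.7% in FP) were near these. The FP split depended on the scaling: centred on the median level rather than the median ratio, which moved the median of all genes from 0.02 to 0.32, 90 were higher and 49 lower. Without D1/2/8/11 replicate 1 or 2 the FP calls numbered 57 and 68, and without D1/8 replicate 1 or 2 they numbered 38 and 45. Segment genes made up most of the lower calls, with 1 higher and 38 lower of 77 (median -0.99), against 32 higher and 18 lower of 157 for the others (median 0.15). Calls by segment over all chromosomes are not given here. On chromosomes duplicated in no strain, genes without a segment were likewise higher in FP, by 0.86 in each D1/2/8/11 culture and 0.01 and 0.05 in D1/8.

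ARO9, an aromatic aminotransferase, was among the genes higher in D1/2/8/11. Its FP was at 59.7 RPKM in the run 2 WT and 482.5 in D1/2/8, while the D1/2/8/11 cultures had 621.5 and 532.9 RPKM and the D1/8 cultures 92.2 and 97.1, whereas D13 had 94.0 and the D13 (KLY195) cultures 104.5 and 84.5. D1/2/8 thus stood at 8.08 times the WT, D1/2/8/11 at 9.64 times and D1/8 at 1.58 times, the level of the strains without the duplication, and D1/2/8/11 exceeded D1/8 by 2.59 ± 0.15 (SE, limma adjusted p = 1.3e-04). CIC1 (1.03 ± 0.16, SE), IMP3 (0.98 ± 0.11, SE) and BCD1 (0.89 ± 0.14, SE), all of ribosome or snoRNP assembly, were also higher. In total 8 of the 10 ribosome assembly genes were called higher, beside 14.4% of the chromosome VIII genes and 16% of all genes. Ribosome assembly genes of other chromosomes were not counted, so this is not read as particular to chromosome VIII. RPS20 (0.88 ± 0.22, SE) lost the call on leaving out any 1 of the 4 cultures, with limma adjusted p from 0.061 to 0.15, and YHR095W on leaving out replicate 1 of either strain.

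Of the genes lower in D1/2/8/11, 2 are siderophore transporters, which take up iron chelates. ARN2 was at 50.9 RPKM in FP of the run 2 WT and 7.71 in D1/2/8, while the D1/2/8/11 cultures had 8.82 and 14.8 RPKM and the D1/8 cultures 136.5 and 125.9, whereas D13 had 1.4 and the D13 (KLY195) cultures 1.97 and 0.64. Only D1/8 was above the WT, and D1/2/8/11 minus D1/8 was -3.47 ± 0.40 (log2, SE, limma adjusted p = 0.0012). ARN1 differed by -2.86 ± 0.25 (SE), HXT4 by -2.81 ± 0.20 (SE), the vacuolar dipeptidyl aminopeptidase DAP2 by -2.56 ± 0.18 (SE) and YHK8, a putative drug exporter, by -2.69 ± 0.48 (SE). YHR214W differed by -3.03 ± 0.15 (SE), and 95.2% of its 28-base stretches occur elsewhere.

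**Figure D4:**
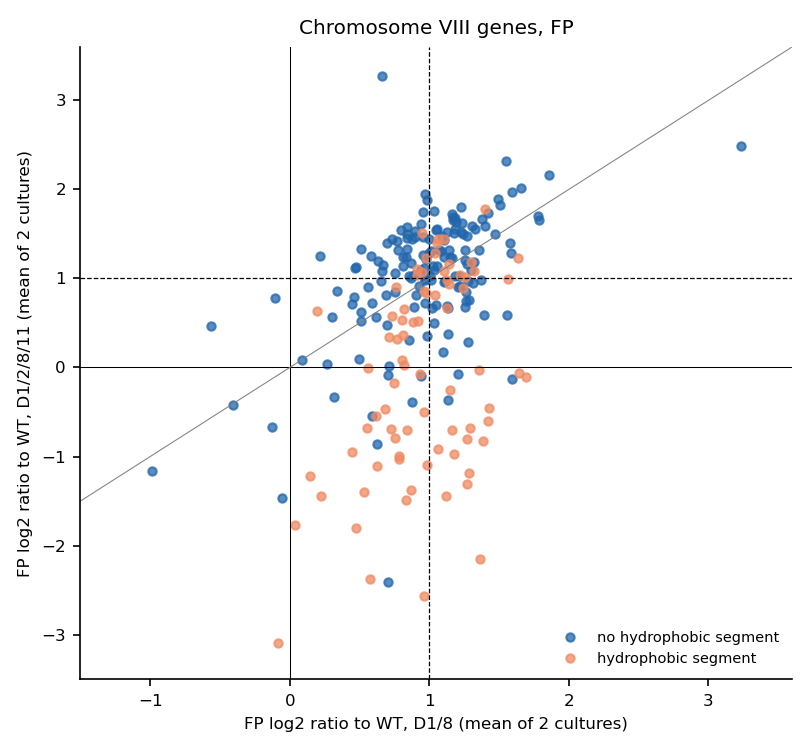
FP log2 ratio to WT of 235 chromosome VIII genes in D1/8 (x axis) and D1/2/8/11 (y axis), each the mean of 2 cultures, coloured by predicted hydrophobic segment; dashed lines mark the copy number and the grey line equal values. Genes without a segment lie around 1 on both axes, whereas many with one lie near 1 on the x axis and below 0 on the y axis, down to HXT4 at -3.1.

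In mRNA the ratios were near the copy number along most of the chromosome in D1/8, whereas the right end was lower in the other strains of run 2. In D1/8 the mRNA medians of 12 windows of 50 kb (the last one shorter) lay between 0.53 and 1.10, the lowest in a window with 3 genes, and the left and right arms had 0.98 and 0.99. In D1/2/8/11 the windows ranged from 0.00 to 1.11, with the lowest values in the last 2 windows of the right arm (0.15 over 12 genes and 0.00 over 3). D1/2/8 and D13 had -0.06 and -0.83 in the former window. In FP the same window stood at 0.81 in D1/2/8/11 (11 genes), beside 0.90 in D1/8 and -0.18 in D1/2/8. The low mRNA value of that window in D1/2/8/11 was thus not seen in footprints. The last window of D1/2/8/11 was low in FP as well, at 0.09 over 3 genes. Genes within 20 kb of an end had median mRNA ratios of 0.24 in D1/2/8, 0.20 in D1/2/8/11 and 0.99 in D1/8 (12 genes), and -0.54 in D13. Their FP medians were -0.17 in D1/2/8, -0.30 in D1/2/8/11 and 1.12 in D1/8 (8 genes), and -0.21 in D13. These genes include YHL049C and YHR219W, whose 28-base stretches all occur in other genes, so some reads at the ends may come from elsewhere. How far this moved the medians was not tested. By WT level, the lowest of 3 equal groups of genes in FP had a median of 0.44 for D1/2/8 and 0.66 for D1/2/8/11, and the highest group 1.03 and 1.16, whereas D1/8 had 0.96 and 0.99. In mRNA the order was the opposite, 0.81 for the lowest and 0.65 for the highest group in D1/2/8 and 0.99 and 0.81 in D1/2/8/11.

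**Figure D5:**
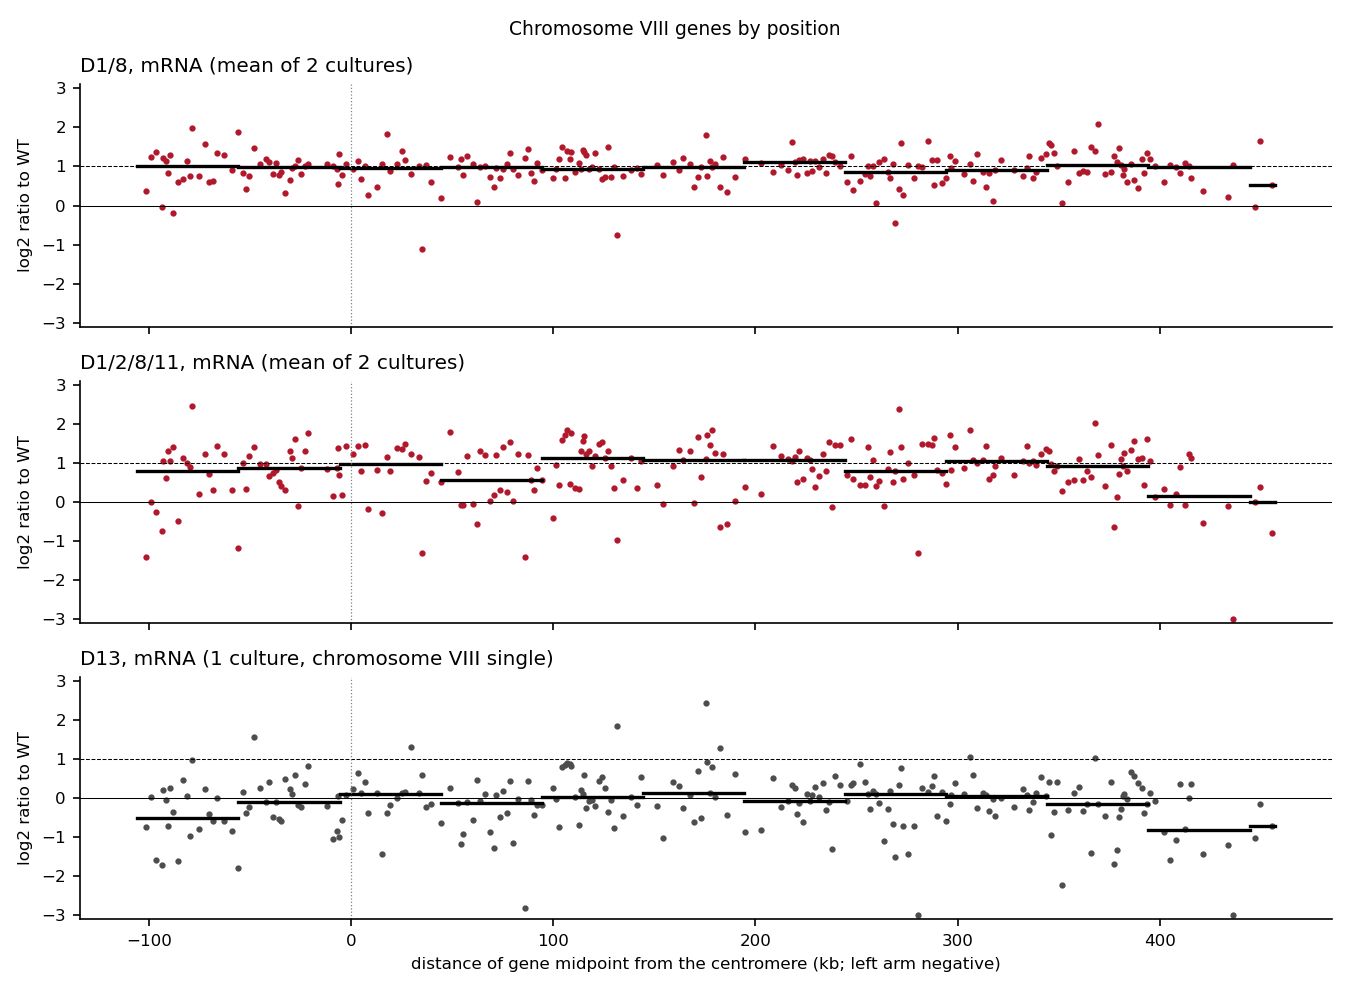
Log2 mRNA ratio to WT of each chromosome VIII gene (points) by distance from the centromere in kb, in D1/8, D1/2/8/11 and D13; black bars are medians of windows of 50 kb, the dashed line is the copy number in the disomes, and 4 points beyond -3 are drawn at that limit. Bars lie near 1 along D1/8 and near 0 along most of D13, and fall at the right end in D1/2/8/11 and D13. Some genes at the ends share their sequence with other genes, so their reads cannot be placed.

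No gene of chromosome VIII differed in ribosome density between run 2 cultures with and without the duplication by limma (0 of 236 higher and 0 lower, against 0% and 0% of 5035). At an unadjusted p under 0.05, 11 were higher and 16 lower, with no count over all genes at this threshold. The density medians of the chromosome differed by 0.01 between strains with and without it, a difference whose sign turned without the centring shift. The lowest unadjusted p belonged to YHR145C, with a density difference of -1.53 ± 0.32 (SE, limma adjusted p = 0.41), IMP3 with 0.50 ± 0.11 (SE, limma adjusted p = 0.41) and MUP3 with -1.07 ± 0.24 (SE, limma adjusted p = 0.41).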

How the data were processed

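Ribosome footprints and mRNA were sequenced from 12 cultures (24 libraries). The deposited values are RPKM, which the authors made by trimming reads with Cutadapt, aligning them without mismatches to the mRNAs of SacCer3 with Bowtie (versions not given in the sources used here), counting reads in coding sequences, and scaling the aneuploid libraries so that genes of nonduplicated chromosomes had a median ratio of 1 to WT. Whole reads were recovered from the steps of the RPKM values to give depth. Of the low values of each library, on which the size of 1 read was chosen, 92.7% to 99.2% came out whole within 0.05. PCR reads carried no molecular identifiers, so depth speaks to counting error only.

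Ratios are log2 RPKM minus that of the WT prepared in the same run, centred on the median over the chromosomes not duplicated in that strain. For the limma fits the centring used the chromosomes duplicated in no strain. Tests used limma 3.58.1 (R 4.3.3) on log2(RPKM + 0.5) of the 9 run 2 libraries of a fraction, for genes that averaged 1 RPKM or more, with Benjamini-Hochberg adjustment over all genes. The pseudocount understates changes of low genes. With 1 WT library per run and fraction, no test was made against WT alone. Cultures of a strain were taken as replicates, and p-values measure the spread between these samples, which may be technical. Python 3.11.15, pandas 2.3.3, numpy 2.4.6, scipy 1.17.1 and matplotlib 3.10.9 served the other steps, and the limma step was tested on simulated data. Hydrophobic segments were predicted from R64 proteins (Kyte-Doolittle mean of 1.6 or more in a window of 19 residues, or of 2 or more in a window of 11 near the start, up to residue 35).

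The members, gene lists and rules were chosen with earlier results of these data known. Genes were named where called away from copy number, where most extreme outside the band of 0.6 to 1.4 with a mean RPKM of at least 10, where highest in WT, as members of 11 lists, where most different between D1/2/8/11 and D1/8 in FP (up to 6 in each direction), or where called in ribosome density. CDC23, OSH7, ATG7, DNA2 and PFS1 were added as examples after their values were seen. So were the genes listed as below or above in both fractions and those with the lowest p in ribosome density. Alternatives covered the pseudocount, the filter, the centring, the reference, a replicate block, averaging by strain, both runs together and leaving out each culture. A centring on the median level and a fit with 1 group per strain were chosen after seeing the data.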

Additional observations from a re-analysis of the deposited data

Results flagged for a closer look

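Among 83 groups of 4 or 5 cultures, 4 held a culture far from the others by Dixon's criterion, where chance gives about 1 in 20. Replicate 1 of D1/2/8/11 had a YHR145C ratio of -0.28 in FP, against -2.05 to -1.61 in the 4 other cultures with chromosome VIII duplicated. The chromosome VIII median in FP of D1/2 was -0.044, against -0.00 to 0.01 in the other cultures without the duplication. In replicate 2 of D13 (KLY195), HXT4 in FP stood at -0.49, against -1.07 to -0.98, and ENO2 in FP at 0.47, against -0.37 to -0.14.

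In FP, 12 genes are listed for the difference between D1/2/8/11 and D1/8, both with chromosome VIII duplicated. They were picked as the most different in this same limma fit, so their passing it was fixed by the choice. Over the chromosome limma called 34 of 236 genes higher in D1/2/8/11 and 56 lower, against 16% and 23.3% of all 5036 genes. D1/2/8/11 was higher for YHR095W by 4.07 (limma adjusted p = 0.023), ARO9 by 2.59 (1.3e-04), CIC1 by 1.03 (0.0043), IMP3 by 0.98 (9.2e-04), BCD1 by 0.89 (0.0041) and RPS20 by 0.88 (0.023). D1/2/8/11 minus D1/8 was -3.47 for ARN2 (limma adjusted p = 0.0012), -3.03 for YHR214W (1.3e-04), -2.86 for ARN1 (4.0e-04), -2.81 for HXT4 (2.4e-04), -2.69 for YHK8 (0.0067) and -2.56 for DAP2 (2.1e-04). Without replicate 1 of D1/2/8/11 the YHR095W value was 2.62 (adjusted p = 0.094), and without replicate 1 of D1/8 it was 3.39 (adjusted p = 0.13).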

How the results depend on the processing

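The higher medians of chromosome VIII in mRNA and FP kept their direction, at differences of 0.86 to 0.94 and 0.87 to 0.92. Within run 2 they were 0.94 and 0.90, where 3 strains against 2 allow no p under 0.1. The density median turned from 0.01 to -0.013 without the shift and to -0.085 against the mean of both WT libraries. The counts of called genes that follow are of chromosome VIII, and no count over all genes was made in these settings. Averaging cultures by strain gave 66 higher genes in mRNA and 0 in FP (154 at an unadjusted p under 0.05), 0 below copy number in mRNA (21) and 0 in FP (23). A fit with 1 group per strain, whose error comes from replicate cultures only, gave 200 higher in FP, 102 below and 52 above in mRNA and 27 below and 10 above in FP. With both runs, 0 were below in mRNA (33) and 0 in FP (33). With the observed chromosome median subtracted, 2 were below and 2 above in mRNA. Centred on the median level, 0 were below in FP (27), and 139 differed between D1/2/8/11 and D1/8 in FP, of which 83 were shared with the 90 first called. The 4 libraries of both strains alone gave 146. Replicate numbers did not pair the samples (correlations of same-numbered deviations -0.07 to 0.21 over 3 pairs of strains per fraction). With the replicate block on 6 libraries, limma called 144 higher in mRNA, 0 in FP (161), 0 below in FP (20) and 1 above in mRNA, and the 6 libraries without a block gave 6 below and 2 above in mRNA. Leaving out 1 culture gave 148 to 200 higher in mRNA and 98 to 153 in FP, 1 to 10 below in mRNA and 0 to 15 in FP, 0 to 4 above in mRNA and 0 to 3 in FP, and 167 to 176 differing between strains in mRNA and 38 to 68 in FP. Of 755 values of named genes, 21 lost a call, 31 gained one and 13 turned direction, none of these called in either fit. In mRNA the departure of CUP1-1 (0.15) was -0.030 on 6 libraries, with or without the block, and from -0.033 to 0.26 on leaving out 1 culture, the lowest without the run 2 WT. That of COX6 (0.0026) was -0.0066 without centring, -0.17 on 6 libraries with or without the block and from -0.18 to 0.082 on leaving out 1 culture, and that of SSP1 (-0.20) was 0.0048 by strain averages or 1 group per strain. In FP GAR1 (0.11) was from -0.14 (without the run 2 WT) to 0.26 on leaving out 1 culture, and -0.077 without replicate 2 of D1/2/8/11. The causes were not tested. Run 1 FP depth, at a median of 83.0 to 213.9 reads per chromosome VIII gene, limits D2 and D1/2 most.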
